A study of Homo sapiens with 12 samples.

Results

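CTNNB1, which encodes beta-catenin, and the feedback targets of the Wnt pathway were followed across HepG2 cells under low and high glucose, with and without valproic acid (VPA). A fixed list of 10 gene symbols was matched to the rows of the count table, and 9 of its 16389 genes were found: CTNNB1, AXIN2, NKD1, LGR5, DKK1, NOTUM, SP5, RNF43 and ZNRF3. DKK4 is not analysed here. HepG2 cells are a widely used line from a human liver tumour. Their polyadenylated RNA was sequenced in 12 libraries, 3 for each of 4 groups. Cells of the LG group were kept for 48 h with 5.5 mM glucose and those of the HG group with 20 mM. Cells of the LGV and HGV groups were kept in the same media and then given 1 mM VPA, an inhibitor of histone deacetylases, for 12 h. The sources do not say whether untreated cells were collected before or after those 12 h, so treatment and culture time cannot be told apart. Nor do they say whether the libraries of a group came from separate cultures, so p-values measure the spread between these libraries, which may be technical. The comparisons ask how high glucose and VPA each altered these genes, and whether the response to VPA differed between media.

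In the canonical Wnt pathway, a complex built on axin and APC holds beta-catenin so that it is phosphorylated and destroyed. When Wnt ligands bind Frizzled and LRP receptors this complex is blocked, and beta-catenin enters the nucleus and activates genes together with TCF/LEF factors. Many of the genes it activates encode brakes on the same pathway, acting on the ligand (NOTUM), on the co-receptor (DKK1), on receptor turnover (RNF43 and ZNRF3), on Dishevelled (NKD1) or on beta-catenin itself (AXIN2). In liver the pathway is known for its role in the zone around the central vein, and HepG2 cells carry a CTNNB1 allele with an in-frame deletion that removes the phosphorylation sites, so that beta-catenin is stabilised. Reads counted per gene pool the deleted and the intact allele.

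On GRCh37, the build of the counts, CTNNB1 lies on chromosome 3 from 41236232 to 41301587, SP5 on chromosome 2 from 171571847 to 171574588 and DKK1 on chromosome 10 from 54074041 to 54077802. AXIN2 (from 63524681 to 63557766), NOTUM (from 79910383 to 79919716) and RNF43 (from 56431037 to 56494956) lie on chromosome 17. NKD1 lies on chromosome 16 from 50582307 to 50683160, LGR5 on chromosome 12 from 71833578 to 71980090 and ZNRF3 on chromosome 22 from 29279560 to 29453476. In the GENCODE annotation of that build, RNF43 shared 68.3% of its exon bases with a protein-coding gene model on the same strand that is named by its identifier alone, ENSG00000285897, and AXIN2 shared 25.3% with ENSG00000266076. These models are not analysed here. On the other strand, 5.45% of the exon bases of RNF43 overlapped TSPOAP1-AS1 and 10.2% of those of DKK1 overlapped PRKG1-AS1. LGR5 shared 3.98% with a long noncoding RNA on the other strand. The strand setting of the counting is not given in the sources used here, so reads of pairs on opposite strands may have been mixed. These overlaps come from GENCODE v44 lifted to that build, while the study counted reads with an Ensembl annotation of it. A gene model named here may therefore not have been part of the counting.

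Promoter windows from RefSeq (build GRCh38.p14) were matched for CTNNB1, DKK1, SP5 and RNF43, the last with 2 start sites. AXIN2, NKD1, LGR5, NOTUM and ZNRF3 were not matched. The 250 bases before each start were searched on both strands for CTTTGAA and CTTTGAT, forms of the core letters bound by TCF/LEF factors. At least 1 match was present in 5.94% of the 35116 windows of the table and at least 3 matches in 0.0199%. The window of SP5 (chr2:170715087-170715336, plus strand) held 3 matches that did not overlap each other, and that of DKK1 (chr10:52314031-52314280, plus strand) held 1. No match was present in the windows of CTNNB1 and RNF43. The SP5 and DKK1 windows are shown because they hold the searched letters. Capitals mark the matches, read as they stand on the strand of the gene.
SP5: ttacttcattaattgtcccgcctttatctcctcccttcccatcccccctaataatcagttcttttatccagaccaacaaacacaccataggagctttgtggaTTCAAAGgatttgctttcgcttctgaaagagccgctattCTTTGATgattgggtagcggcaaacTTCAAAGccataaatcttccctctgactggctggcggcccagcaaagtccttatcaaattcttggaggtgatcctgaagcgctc
DKK1: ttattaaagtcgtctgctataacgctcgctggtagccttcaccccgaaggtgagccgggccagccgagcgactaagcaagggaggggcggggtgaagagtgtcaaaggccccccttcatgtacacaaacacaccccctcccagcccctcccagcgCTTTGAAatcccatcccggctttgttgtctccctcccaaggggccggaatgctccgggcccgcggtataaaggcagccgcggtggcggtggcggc
The matches in SP5 started 148, 109 and 84 bases before the start site, and the match in DKK1 started 95 bases before it. A match is a description of the letters and was not tested as a binding site.

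Between 29798442 and 45572694 reads were counted per library. Values are given as CPM, counts scaled to sequencing depth with edgeR's TMM factors, and a count of 3 reads, taken as the floor, stood for 0.0713 to 0.112 CPM, which covers counting error only. All 9 genes were far above this floor, with a lowest count of 567 reads, that of DKK1 in LGV replicate 2. All 8 hepatocyte markers (albumin, AFP and others) were measured, and their summed level ranged from 36499 to 54919 CPM. It lay between 47372 and 52708 CPM in LG, between 46550 and 54919 CPM in HG, between 36499 and 37159 CPM in LGV and between 41320 and 54912 CPM in HGV. Of 9 markers of fibroblasts, endothelial cells and leukocytes, 4 were measured, with sums of 39.1 to 60.2 CPM in LG, 23.0 to 34.6 in HG, 33.4 to 41.6 in LGV and 30.4 to 37.74 in HGV. Most of that sum was PDGFRB, a receptor of mesenchymal cells, which was lower in HG than in LG by a log2 fold change of -1.02 (FDR 0.000480), lower in LGV than in LG by -0.47 (FDR 0.0246) and lower in HGV than in LGV by -0.33 (FDR 0.0494). CD14, a monocyte marker, was higher in HG than in LG by 1.28 (FDR 0.00160), fell by 0.56 in HGV against HG (FDR 0.0218) and was higher in HGV than in LGV by 1.51 (FDR 0.000381), at 0.630 to 4.73 CPM. COL1A1 and CDH5 had at most 2.64 and 1.502 CPM in any library. COL1A1 (FDR 8.96e-05) and CDH5 (FDR 0.00133) rose with VPA in HG, from at most 14 and 19 reads per HG library. Both were higher in HGV than in LGV (FDR 0.0486 and 0.000924). COL1A1 was also called higher in LGV than in LG (FDR 0.000553), with at most 10 reads per LG library. It reached the mean of 10 reads needed for that test only through the LGV libraries, so its mean count had to be higher there. HNF4A, a hepatocyte transcription factor, fell with VPA in both media, by 0.46 on the log2 scale in HG (FDR 0.00141) and by 0.73 in LG (FDR 0.000299). Of the other 7, FGB fell in HG, by 0.50 (FDR 0.0353), TTR rose there, by 0.51 (FDR 0.00914), and ALB, AFP, APOA1, APOB and SERPINA1 were not called. In LG, APOA1, APOB, SERPINA1 and FGB fell, by 0.49 to 0.68, and ALB, AFP and TTR were not called. High glucose alone raised FGB and APOA1 (FDR 0.000836 and 0.00991), and both were also higher in HGV than in LGV, as was TTR. What part these markers have in the results was not tested. In bulk RNA, fewer cells of a kind and less RNA per cell cannot be told apart.

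Levels were first compared between the genes, as CPM per kilobase of the canonical transcript. NOTUM was highest in untreated cells, with 194 ± 23.5 CPM per kb in LG (SD, n = 3) and 272 ± 42.5 in HG (SD, n = 3). In LG, SP5 followed with 127 ± 6.73 (SD, n = 3) and CTNNB1 with 123 ± 9.54 (SD, n = 3), and these neighbours overlapped. AXIN2 came next in LG, with 34.4 ± 8.87 CPM per kb (SD, n = 3). Below it ZNRF3, LGR5, NKD1, RNF43 and DKK1 had means from 21.6 down to 15.5 CPM per kb, and each of these neighbours overlapped the next. In HG the order below AXIN2 was DKK1, RNF43, LGR5, ZNRF3 and NKD1, with NKD1 last at 12.3 ± 0.459 CPM per kb (SD, n = 3). DKK1, RNF43 and LGR5 overlapped in turn in HG. In LGV, CTNNB1 was first with 104 ± 14.1 (SD, n = 3), and NOTUM and SP5 overlapped at 75.6 and 74.4 CPM per kb. In HGV, NOTUM, CTNNB1 and SP5 overlapped in turn at 135, 118 and 104 CPM per kb. There DKK1 came next with 33.0 ± 2.00 CPM per kb (SD, n = 3), above NKD1, AXIN2, ZNRF3, RNF43 and LGR5, whereas it was last in LG and in LGV. The canonical transcript of NKD1 has 17039 bases, against 1805 to 6872 for the others. The level of CTNNB1 depended strongly on the length used, since its canonical transcript has 3661 bases and its annotated exons together 11759. With all annotated exon bases as the length, CTNNB1 had 38.2 CPM per kb in LG and stood below both NOTUM and SP5 in all 4 groups, and SP5 was first in LGV. The order below AXIN2 in HG was then LGR5, ZNRF3, DKK1, RNF43 and NKD1, so the order of these genes depended on the length as well.

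**Figure D1:**
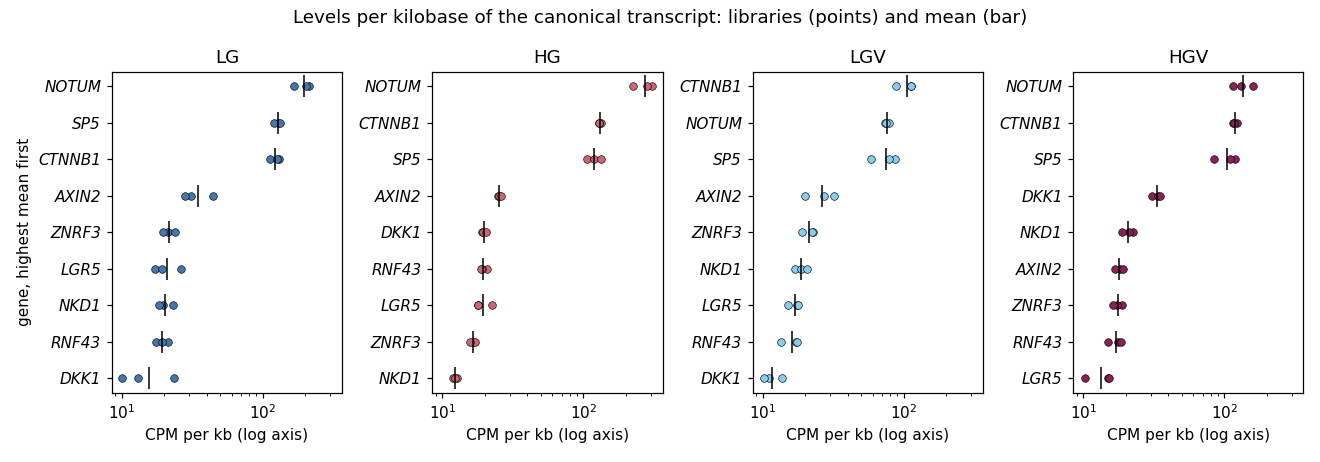
Levels of the 9 genes in each group, in CPM per kilobase of the canonical transcript on a log axis, with 1 point per library and a bar at the mean. NOTUM, SP5 and CTNNB1 hold the top 3 places in all 4 groups, and DKK1 moves from last in LG and LGV to the place just below them in HGV.

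The 9 genes moved in both directions. Differences were assessed with the quasi-likelihood F test of edgeR over all genes with a mean of at least 10 reads, and called at a false discovery rate (FDR, Benjamini-Hochberg) of 0.05 or less. Between HG and LG, 1 of the 9 genes was higher in HG (NOTUM) and 3 were lower (NKD1, AXIN2 and ZNRF3), beside 24.7% of all genes tested. The count of 4 became 1 without HG replicate 2 and 2 without any of HG replicates 1 and 3 and LG replicates 1 and 2. Calls over all genes fell in these settings as well. They went from 1854 higher and 1959 lower to 1269 and 1406 without HG replicate 2, and to 961 and 972 without LG replicate 1. Between HGV and HG, 2 rose with VPA (NKD1 and DKK1) and 3 fell (NOTUM, LGR5 and AXIN2), beside 46.1% of all genes. Between LGV and LG, NOTUM and SP5 fell, 2 of the 9 genes, beside 41.6% of all genes. Between HGV and LGV, 3 were higher in HGV (DKK1, NOTUM and SP5) and AXIN2 was lower, beside 40.7% of all genes. The 4 comparisons share groups with one another and are not independent. The groups did not overlap for 4 of the 9 genes between HG and LG, 7 between HGV and HG, 2 between LGV and LG and 5 between HGV and LGV. Over all genes tested the groups did not overlap in 41.2%, 54.6%, 50.5% and 51.4% of cases, respectively. The median log2 fold change of the 9 genes was -0.07 for HG against LG, -0.19 for HGV against HG, -0.30 for LGV against LG and 0.13 for HGV against LGV. For all genes tested it was 0.01, 0.02, -0.01 and 0.01.

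**Figure D2:**
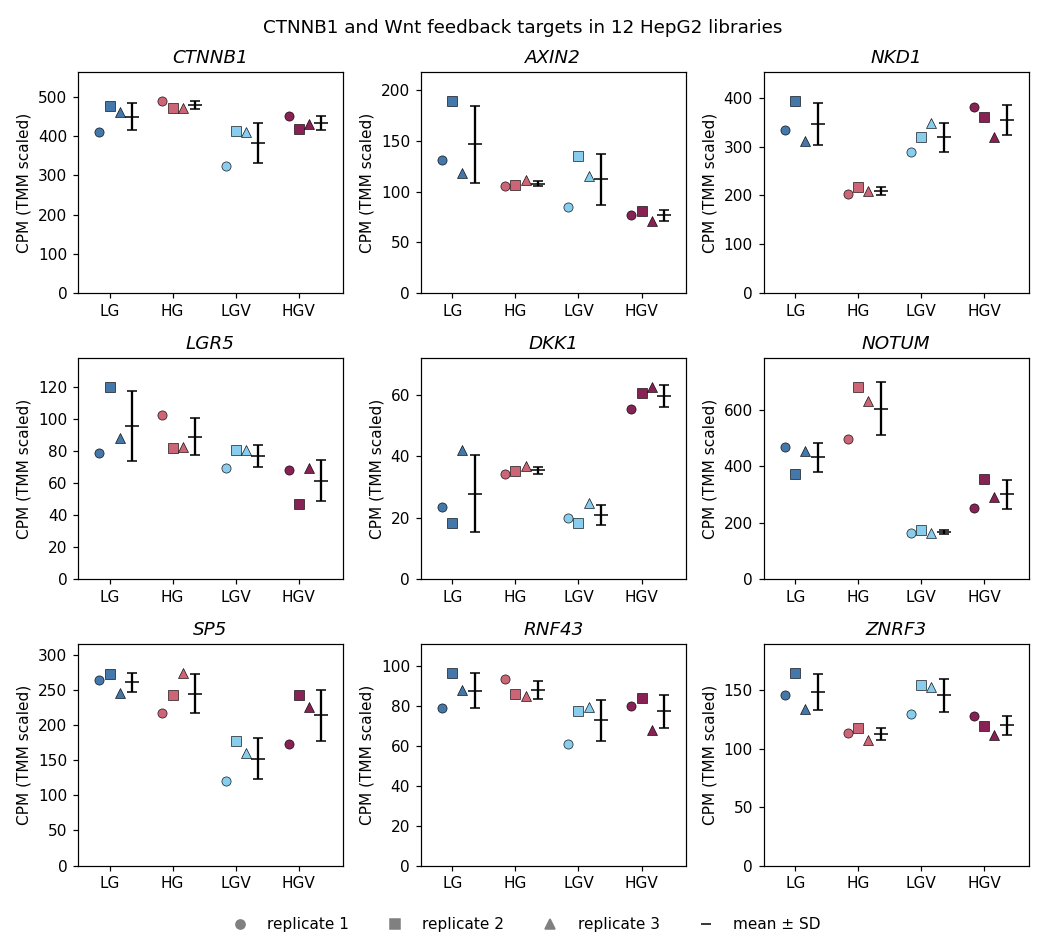
CPM, scaled with TMM factors, of the 9 genes in each of the 12 libraries, with the replicates as symbols and the mean and SD of each group as bars. NKD1 is lowest in the 3 HG libraries, DKK1 is highest in the 3 HGV libraries, and NOTUM is lowest in the 3 LGV libraries.

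**Figure D3:**
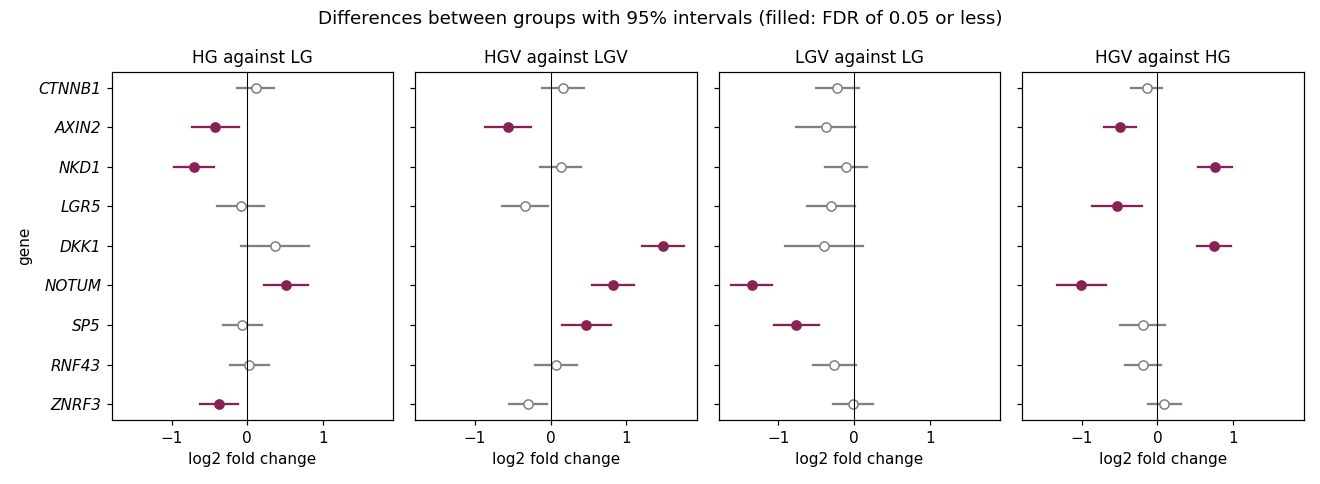
Log2 fold changes of the 9 genes in 4 comparisons, with 95% intervals from the edgeR fit and filled symbols for an FDR of 0.05 or less. NKD1 moves to -0.70 in HG against LG and to 0.76 in HGV against HG, and the interval of CTNNB1 includes 0 in all 4 comparisons.

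CTNNB1, the mediator of the pathway, was not called in any comparison. Its level was 409.8, 476 and 461 CPM in LG and 489.6, 472 and 471 CPM in HG. With VPA it was 322, 413 and 411 CPM in LGV and 451, 418 and 429 CPM in HGV. The HGV libraries all lay below the HG libraries and above the LGV libraries, while HG and LG overlapped, as did LGV and LG. The log2 fold change was 0.11 for HG against LG (95% interval -0.14 to 0.36) and -0.14 for HGV against HG (95% interval -0.35 to 0.07). It was -0.22 for LGV against LG (95% interval -0.51 to 0.06) and 0.16 for HGV against LGV (95% interval -0.12 to 0.44). These intervals leave room for modest changes of either sign.

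AXIN2, a scaffold of the destruction complex and a widely used readout of beta-catenin activity, was lower with high glucose in both treatment states and lower with VPA in HG. It had 131, 189.6 and 119 CPM in LG and 106, 107 and 111 CPM in HG. With VPA it had 85.4, 136 and 115 CPM in LGV and 77.5, 81.3 and 71.1 CPM in HGV. The HGV libraries were the lowest 3 of the 12, and LG replicate 2 was the highest. AXIN2 fell by 0.49 on the log2 scale with VPA in HG (SE 0.10, FDR 0.00117 by edgeR). It was lower in HGV than in LGV by a log2 fold change of -0.57 (SE 0.15, FDR 0.00479). Between HG and LG the log2 fold change was -0.42 (SE 0.15, FDR 0.0459), and this call rested on single libraries. Without LG replicate 2 the log2 fold change was -0.17 (FDR 0.353), and the FDR was above 0.05 without any of LG replicate 1 and HG replicates 1, 2 and 3 as well. Between LGV and LG the log2 fold change was -0.38 (SE 0.18, FDR 0.115), with overlapping libraries. That FDR was 0.0245 without LG replicate 3 and 0.0440 without LGV replicate 2.

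NKD1, which binds Dishevelled and dampens the signal, fell in high glucose and rose again with VPA. It had 334, 394 and 312 CPM in LG and 202, 218 and 209 CPM in HG. In LGV it had 289, 319.5 and 349 CPM, and in HGV 381, 362 and 320.4 CPM. The 3 HG libraries were the lowest of the 12, and the other 3 groups overlapped one another. NKD1 fell by 0.70 on the log2 scale in HG against LG (SE 0.12, FDR 0.000551) and rose by 0.76 in HGV against HG (SE 0.10, FDR 7.38e-05). Both calls held when each library was left out in turn. Between LGV and LG the log2 fold change was -0.11 (95% interval -0.38 to 0.17, FDR 0.544) and between HGV and LGV it was 0.13 (95% interval -0.14 to 0.40, FDR 0.434). The exons of NKD1 shared 0.386% of their bases with a long noncoding RNA on the other strand.

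LGR5, a receptor for R-spondins and a marker of Wnt-driven stem cells, fell with VPA in HG. It had 78.7, 120.1 and 88.3 CPM in LG and 102, 82.2 and 82.4 CPM in HG. In LGV it had 69.2, 80.7 and 81.0 CPM, and in HGV 68.5, 46.9 and 69.6 CPM. The HGV libraries did not overlap those of HG, and the LGV and LG libraries overlapped. The log2 fold change was -0.53 in HGV against HG (SE 0.15, FDR 0.0127) and -0.30 in LGV against LG (SE 0.15, FDR 0.119). In HGV against LGV it was -0.34 (SE 0.14, FDR 0.0672). The value of LGV against LG was -0.43 (FDR 0.0488) without LG replicate 1 and -0.11 (FDR 0.524) without LG replicate 2, and that of HGV against LGV was -0.43 (FDR 0.0401) without HGV replicate 3 and -0.17 (FDR 0.234) without HGV replicate 2. With library size in place of TMM factors, the FDR of HGV against HG was 0.0609. Between HG and LG the log2 fold change was -0.09 (95% interval -0.40 to 0.22).

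RNF43 and ZNRF3 encode membrane ubiquitin ligases that remove Frizzled receptors from the cell surface. RNF43 was not called in any comparison. It had 78.7, 96.3 and 87.6 CPM in LG, 93.1, 85.9 and 85.0 CPM in HG, 60.8, 77.5 and 79.5 CPM in LGV, and 79.97, 83.6 and 67.9 CPM in HGV. Its log2 fold changes ran from -0.26 for LGV against LG (95% interval -0.54 to 0.02) to 0.07 for HGV against LGV (95% interval -0.20 to 0.35). ZNRF3 had 146, 165 and 134 CPM in LG and 113, 118 and 107 CPM in HG, with no overlap. In LGV it had 129.6, 155 and 153 CPM, and in HGV 128, 119.9 and 112 CPM. The log2 fold change of ZNRF3 was -0.37 for HG against LG (SE 0.12, FDR 0.0326). The FDR rose above 0.05 without any of HG replicates 1, 2 and 3 and LG replicates 1 and 2, to at most 0.191. Between HGV and LGV it was -0.30 (SE 0.12, FDR 0.0581), again with no overlap. With VPA the log2 fold change was 0.09 in HG (95% interval -0.12 to 0.31) and -0.01 in LG (95% interval -0.28 to 0.25).

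DKK1, a secreted inhibitor that binds the LRP co-receptors, was highest in cells given both high glucose and VPA. It had 23.5, 18.2 and 42.0 CPM in LG and 34.5, 35.1 and 36.9 CPM in HG. In LGV it had 20.0, 18.4 and 24.8 CPM, and in HGV 55.6, 60.6 and 62.6 CPM. Each HGV library was above each library of the other 3 groups, and LG replicate 3 was above the HG libraries. DKK1 rose by 0.75 on the log2 scale in HGV against HG (SE 0.10, FDR 7.35e-05). It was higher in HGV than in LGV by 1.48 (SE 0.13, FDR 3.45e-07), the largest difference of the 9 genes in the 4 comparisons. Between HG and LG the log2 fold change was 0.37 (SE 0.21, FDR 0.215), and without LG replicate 3 it was 0.80 (FDR 0.000686). Between LGV and LG it was -0.40 (SE 0.24, FDR 0.204). It was -0.64 (FDR 0.0158) without LG replicate 2 and 0.05 (FDR 0.860) without LG replicate 3, so LG replicate 3 decided the sign.

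NOTUM, a secreted enzyme that removes the lipid from Wnt ligands, was higher with high glucose and lower with VPA, in both states of the other factor. It had 469.7, 372 and 452 CPM in LG and 498, 681 and 632 CPM in HG. With VPA it had 164, 175 and 165 CPM in LGV and 254, 356 and 293 CPM in HGV. No library of these 4 groups overlapped another group, in the order LGV, HGV, LG and HG from lowest to highest. NOTUM fell by 1.35 on the log2 scale with VPA in LG (SE 0.13, FDR 1.33e-06) and by 1.01 in HG (SE 0.15, FDR 0.000130). It was higher in HGV than in LGV by 0.82 (SE 0.13, FDR 0.000139) and higher in HG than in LG by 0.51 (SE 0.14, FDR 0.0123). Without HG replicate 2 the last FDR was 0.0794, with a log2 fold change of 0.40. The exons of NOTUM shared 5.08% of their bases with a long noncoding RNA on the other strand.

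SP5, a zinc finger transcription factor whose promoter window with 3 matches is printed above, fell with VPA in low glucose. It had 264, 273 and 246 CPM in LG and 218, 243 and 274 CPM in HG. In LGV it had 121, 177 and 159.6 CPM, and in HGV 173, 243 and 226 CPM. The LGV libraries lay below the LG libraries, and the HGV and HG libraries overlapped. SP5 fell by 0.76 on the log2 scale in LGV against LG (SE 0.14, FDR 0.000507). In HGV against HG the log2 fold change was -0.19 (95% interval -0.49 to 0.10, FDR 0.265). SP5 was higher in HGV than in LGV by 0.47 (SE 0.15, FDR 0.0196), a call that was lost without HGV replicate 2 (FDR 0.0628), HGV replicate 3 (FDR 0.0535) or LGV replicate 1 (FDR 0.0890).

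The difference between the VPA responses in the 2 media was tested as an interaction term fitted to the 12 libraries. With edgeR, 0 of the 9 genes passed, beside 0.0427% of all genes (7 of 16389, of which 0.0244% above and 0.0183% below 0). Of the 9, 3 had an unadjusted p under 0.05, beside 1852 of all 16389 genes. The interaction was 0.88 on the log2 scale for NKD1 (SE 0.17, FDR 0.0627), 1.16 for DKK1 (SE 0.29, FDR 0.104) and 0.58 for SP5 (SE 0.21, FDR 0.265), all from the edgeR fit. DESeq2's Wald test on the same counts called NKD1 (FDR 0.00223) and DKK1 (FDR 0.0263), 2 of the 9. Over all genes it called 100 above and 62 below 0, against 4 and 3 with edgeR. A different response of NKD1 and DKK1 in the 2 media is therefore not settled by these libraries. With edgeR, NKD1 and DKK1 both passed without LG replicate 2, and NKD1 passed without LG replicate 3, with interactions of 0.74 and 0.95 for NKD1 and of 1.36 for DKK1 without LG replicate 2. Calls over all genes rose in these settings as well. They were 168 above and 49 below 0 without LG replicate 2, and 48 and 19 without LG replicate 3. Without LG replicate 3 the interaction of DKK1 was 0.73 (FDR 0.132). For the other 6 genes the interaction ran from -0.22 for LGR5 to 0.36 for NOTUM.

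Single libraries stood out over the genes described here. LG replicate 2, the most deeply read library, was the highest of its group for 7 of the 9 genes and the lowest for DKK1 and NOTUM. Over all genes it was the highest of its group in 34.5%. LGV replicate 1 was the lowest of its group for 8 of the 9 genes, against 39.4% of all genes, and DKK1 was the exception. The part of depth in this was not tested.

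Other genes of the pathway were taken from 6 lists by role, of which 77 of 108 genes were measured. More of them were called with VPA than with high glucose, as was the case for all genes. In HGV against HG all 77 could be tested, and 31 rose and 17 fell, beside 25.8% higher and 20.2% lower of all genes. Of the 75 tested between LGV and LG, 29 rose and 15 fell, beside 21.7% and 19.9% of all genes. Some of these genes reached the filter of 10 reads only through the VPA libraries, and the mean count of such a gene had to be higher there. The filter fixes this direction but not the call. Over all genes that passed only in this way, 84.6% were called higher in HGV than in HG and 85.8% in LGV than in LG. Among the 70 genes whose HG libraries alone averaged at least 10 reads, 24 rose and 17 fell, beside 22.6% and 21.3% of all genes of that kind, with a median log2 fold change of 0.04 beside -0.01. Among the 64 whose LG libraries alone did so, 19 rose and 15 fell, beside 18.7% and 20.8%, with a median of 0.04 beside -0.04. All 9 feedback genes passed through either group alone. Between HG and LG, 8 of 70 were higher and 13 lower, beside 12% and 12.7% of all genes. These 21 calls became 13 without any of HG replicate 2, LG replicate 1 and LG replicate 2 and 10 without HG replicate 3. Calls over all genes fell in these settings too, to 1121 higher and 955 lower without HG replicate 3. The 21 include WNT8B and CYP2E1, which passed the filter only through the HG libraries, and CTBP2, which passed only through the LG libraries. The direction of such genes was fixed by the filter here too, and these counts were not split in this way. Between HGV and LGV, 17 of 77 were higher and 20 lower, beside 21.2% and 19.5%, and these 37 calls became 24 without LGV replicate 3. Calls over all genes fell there too, from 3444 higher and 3160 lower to 2376 and 2140. In the interaction 0 of the 77 passed with edgeR and 0 with DESeq2. With edgeR, 12 of the 77 had an unadjusted p under 0.05, beside 1852 of all 16389 genes.

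In the lists below, counts with VPA are over the genes that averaged at least 10 reads in the untreated libraries. Over all such genes, 22.6% rose and 21.3% fell in HG, and 18.7% rose and 20.8% fell in LG. The lists are short, and no list was tested as a set. Among Wnt ligands and their secretion genes, 6 of 7 rose and 1 fell with VPA in HG, and 2 of 4 rose and 1 fell in LG. WNT5B, WNT9A and WNT10B in HG, and these with WNT6 and WNT11 in LG, passed only through the VPA libraries. WNT11, which mostly signals without beta-catenin, had 0.449, 0.150 and 0.179 CPM in LG and 5.10, 5.85 and 5.68 CPM in LGV, a log2 fold change of 4.51 (SE 0.34, FDR 1.65e-07). It had 0.444, 0.688 and 0.280 CPM in HG and 9.75, 11.5 and 9.68 CPM in HGV, a log2 fold change of 4.45 (SE 0.25, FDR 6.37e-08). WNT10B, a ligand of the beta-catenin branch, had 2 to 4 reads per library in HG and 3.68, 4.54 and 3.88 CPM in HGV (FDR 8.03e-08). WNT3 was the ligand that fell, by 0.73 in HG (SE 0.13, FDR 0.000683) and by 0.53 in LG (SE 0.17, FDR 0.0237). It had 13.2, 15.9 and 15.5 CPM in HG and 8.25, 9.39 and 9.29 CPM in HGV. WNT8B was called higher in HG, with 0.122 ± 0.0526 CPM in LG (SD, n = 3) and 0.498 ± 0.0640 in HG (SD, n = 3). It had at most 7 reads per LG library and passed the filter only through the HG libraries, so its mean count had to be higher there. High glucose alone lowered WNT7B by 1.16 on the log2 scale (SE 0.36, FDR 0.0244).

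Of 15 receptors and co-receptors, 8 rose and 3 fell with VPA in HG, and of 14, 6 rose and 3 fell in LG. FZD2 in both media and FZD8 in LG passed only through the VPA libraries. FZD7 rose by 2.84 on the log2 scale in LG (SE 0.23, FDR 3.18e-07), from 0.935, 0.823 and 1.20 CPM to 7.38, 6.92 and 6.89 CPM. It also rose in HG, by 2.20 (SE 0.19, FDR 2.09e-06). FZD2 had 1 to 2 reads per library in HG and 3.25, 4.87 and 3.18 CPM in HGV (FDR 1.50e-07). Among receptors that fell, FZD5 fell by 0.69 in HG (SE 0.13, FDR 0.00108) and the co-receptor LRP5 fell by 0.76 in LG (SE 0.12, FDR 0.000191). Both were also called lower in the other medium. The log2 fold change was -0.32 for FZD5 in LG (SE 0.12, FDR 0.0395) and -0.28 for LRP5 in HG (SE 0.10, FDR 0.0336). FZD4 fell by 0.59 in HG (SE 0.12, FDR 0.00190) and by 0.58 in LG (SE 0.14, FDR 0.00318), and it was higher in HG than in LG by 0.51 (SE 0.14, FDR 0.0120). Of 3 secreted antagonists, 0 were called with VPA in HG and 1 rose in LG. In HG, 2 of the 3 had an unadjusted p under 0.05, beside 8588 of all 16188 genes tested. DKK3, a relative of DKK1 that passed only through the VPA libraries, rose in both media, from at most 3 reads per HG library to 6.56, 8.30 and 5.56 CPM in HGV and from at most 6 reads per LG library to 3.24, 3.90 and 3.44 CPM in LGV (FDR 3.50e-08 and 1.38e-06). SFRP4, which binds Wnt ligands, was the one called in LG, with a log2 fold change of 0.71 (SE 0.23, FDR 0.0244).

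In the list of the destruction complex and Dishevelled, 1 of 17 genes rose and 6 fell with VPA in HG, and 3 rose and 3 fell in LG. NKD2, the relative of NKD1, rose in both media, by 2.46 on the log2 scale in HG (SE 0.18, FDR 3.52e-07) and by 1.82 in LG (SE 0.23, FDR 1.88e-05). AXIN1, the relative of AXIN2, fell by 0.50 in LG (SE 0.12, FDR 0.00441), as did DVL1 by 0.61 (SE 0.13, FDR 0.00142). Both were also called lower with VPA in HG. The log2 fold change there was -0.43 for AXIN1 (SE 0.10, FDR 0.00364) and -0.45 for DVL1 (SE 0.11, FDR 0.00610). DVL3, a Dishevelled protein, was lower in HG than in LG by a log2 fold change of -0.85 (SE 0.13, FDR 0.000148), lower in HGV than in HG by -0.56 (SE 0.09, FDR 0.000331), lower in LGV than in LG by -0.49 (SE 0.13, FDR 0.00969) and lower in HGV than in LGV by -0.95 (SE 0.12, FDR 1.21e-05). Of 15 genes of the nuclear complex, 5 rose and 3 fell with VPA in HG, and 5 rose and 4 fell in LG. LEF1 in both media, CTBP2 in HG and TLE2 in LG passed only through the VPA libraries. The coactivator CREBBP fell by 1.33 in HG (SE 0.13, FDR 5.03e-06) and by 0.79 in LG (SE 0.14, FDR 0.000402). The corepressor CTBP1 fell by 0.91 in HG (SE 0.11, FDR 2.40e-05) and by 1.06 in LG (SE 0.11, FDR 3.32e-06). TLE2, a Groucho corepressor, rose from 0.439 ± 0.0426 CPM in HG (SD, n = 3) to 4.82 ± 0.569 in HGV (SD, n = 3), with an FDR of 1.76e-07. Between HG and LG, 6 of 15 genes of this list were lower and 0 higher, beside 12.7% lower and 12% higher of all genes tested. An unadjusted p under 0.05 was reached by 8 of the 15, beside 5863 of all 15452 genes tested. One of the 6 was CTBP2, with at most 34 reads per LG and 8 per HG library. Whether pseudogene copies took part of its reads was not tested, so its counts are uncertain. CTBP2 passed the filter there only through the LG libraries, so its mean count had to be lower in HG. TLE4 was among the lower, with a log2 fold change of -0.84 (SE 0.18, FDR 0.00252).

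Other genes known to respond to beta-catenin also moved in both directions, with 4 of 13 higher and 4 lower with VPA in HG and 2 of 11 higher and 4 lower in LG. CYP2E1 in LG passed only through the VPA libraries. With high glucose alone, 3 of 13 were higher (CYP2E1, SOX9 and RHBG) and 2 lower (OAT and GLUL), beside 12% and 12.7% of all genes tested. Of these, CYP2E1 had 6 to 9 reads per LG library and 13 to 20 per HG library. It passed the filter there only through the HG libraries, so its mean count had to be higher in HG. GLUL, the glutamine synthetase of cells around the central vein, had 962, 1070.2 and 834 CPM in LG and 722, 690.2 and 753 CPM in HG. It had 365, 446 and 399 CPM in LGV and 339.9, 416 and 322 CPM in HGV. GLUL fell with VPA by 1.23 on the log2 scale in LG (SE 0.14, FDR 5.86e-06) and by 1.01 in HG (SE 0.12, FDR 2.05e-05). OAT, ornithine aminotransferase of the same zone, moved the other way, with rises of 0.81 in LG (SE 0.12, FDR 6.15e-05) and 1.30 in HG (SE 0.12, FDR 2.87e-06). RHBG, an ammonium transporter, fell by 0.79 in LG (SE 0.14, FDR 0.000456) and by 0.42 in HG (SE 0.11, FDR 0.00768). RHBG was higher in HG than in LG by 0.50 (SE 0.14, FDR 0.0149), while GLUL and OAT were lower, by log2 fold changes of -0.38 (SE 0.12, FDR 0.0305) and -0.59 (SE 0.13, FDR 0.00242).

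**Figure D4:**
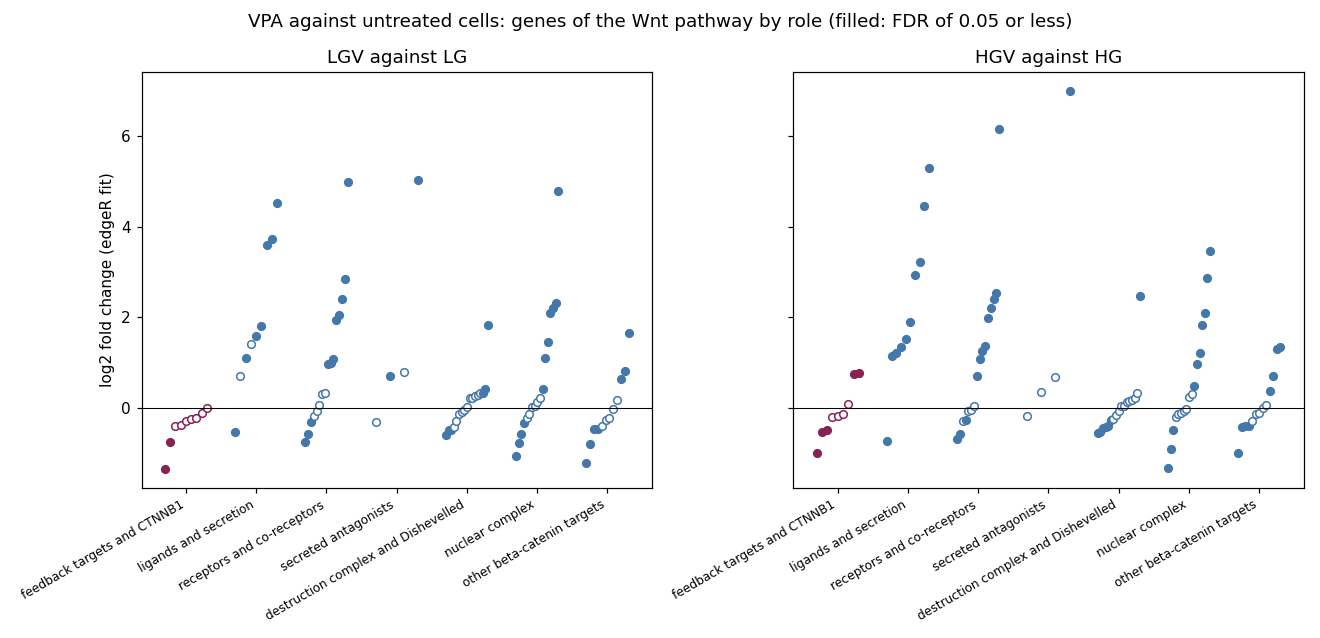
Log2 fold changes with VPA in low glucose (left) and high glucose (right) for the 9 genes and the other pathway genes by role, with 1 point per gene and filled points for an FDR of 0.05 or less. The 9 genes lie between -1.35 and 0.76. Rises above 2 on the log2 scale include ligands, receptors, a secreted antagonist and nuclear genes in both media. Of the genes above 2, the antagonist (DKK3), FZD2 and LEF1 passed the filter only through the VPA libraries in both media. So did WNT5B, WNT10B, WNT11 and TLE2 in low glucose, and WNT5B, WNT9A, WNT10B and CTBP2 in high glucose. Such genes had to have a higher mean count with VPA and are no measure for the 9, and values of genes with few reads without VPA depend on the fit.

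The genes most like AXIN2 and LGR5 over the 12 libraries were found by the root mean square difference of centred log2 CPM, among 12479 genes. The nearest to AXIN2 were PABPC4 (0.0813), CSNK1D (0.0937), MCPH1 (0.101), MTA2 (0.109) and PHLPP1 (0.111), where AXIN2 itself had an SD of 0.38 on the log2 scale. Among the nearest to LGR5 were TBL1XR1 (0.0939), ZC3H11A (0.0986), RBM25 (0.109) and RCOR3 (0.116), where the SD of LGR5 was 0.32. None of these genes was among the 9 described here. The libraries share their depth and scaling with each gene, and no test was made.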

How the data were processed

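Per the labels and the study's methods, poly(A) RNA of HepG2 cells was sequenced as 50 nt reads, trimmed, aligned with STAR to GRCh37 and assigned to Ensembl genes with featureCounts. The authors deposited the resulting raw counts, with no normalization, for 16389 genes, and the smallest mean count of any gene was 10. Libraries were grouped by their titles.

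Genes with a mean of at least 10 reads in the libraries compared were tested with edgeR 4.0.16 (R 4.3.3), with TMM factors, the quasi-likelihood F test and FDR over all genes tested. SE is the log2 fold change divided by the root of F. CPM was scaled with TMM factors, and log2 CPM used a pseudocount of 0.5. The edgeR script was tested on simulated data. Lengths and exon overlaps came from GENCODE v44 lifted to GRCh37, plots from matplotlib 3.10.9.

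The members and lists were chosen with earlier results of these data known. All 9 genes were named in each comparison, and from each pathway list at most 2 called genes per direction and comparison. The alternatives were other normalization factors, filters and thresholds, DESeq2 1.42.0, a replicate block, one fit of all 12 libraries and leaving out each library.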

Additional observations from a re-analysis of the deposited data

How the results depend on the processing

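The number of the 9 genes called between HG and LG, 4 with TMM factors, was 2 with library size only (1 higher and 1 lower), 2 with the replicate block and 1 at an FDR of 0.01. With each library left out it ranged from 1 to 5, lowest without HG replicate 2. Of the other pathway genes, 21 were called between HG and LG, 9 at an FDR of 0.01 and between 10 (without HG replicate 3) and 28 (without LG replicate 3) with each library left out. Between HGV and LGV, 37 of them were called, 21 at an FDR of 0.01 and between 24 (without LGV replicate 3) and 39 with each library left out. Calls over all genes moved the same way. Between HG and LG, 1854 higher and 1959 lower became 1269 and 1406 without HG replicate 2 and 1121 and 955 without HG replicate 3. They became 2719 and 2619 without LG replicate 3 and 824 and 1028 at an FDR of 0.01. Between HGV and LGV, 3444 and 3160 became 2376 and 2140 without LGV replicate 3. For the interaction, DESeq2's Wald test called 2 of the 9 genes, leaving out each library gave 0 to 2, and for the other pathway genes it gave 0 to 1. Of 75 alternative counts of the 9 genes, 64 stayed within 1.5 times, as did 67 of 75 for the other pathway genes. The 5 calls of HGV against HG held with each library left out.

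Of the alternative log2 fold changes of the 9 genes, 613 kept their direction and side of the threshold, 26 lost and 16 gained a call, and 20 changed sign. With library size only, the median of all genes moved from -0.01 to 0.16 in LGV against LG and from 0.02 to 0.15 in HGV against HG. The split of all genes called moved from 1854 higher and 1959 lower to 2172 and 1297 in HG against LG, from 4184 and 3272 to 5182 and 2424 in HGV against HG, from 3461 and 3177 to 4500 and 1956 in LGV against LG, and from 3444 and 3160 to 3761 and 2309 in HGV against LGV. That setting changed the sign of values that were not called: LGR5 (0.0187) and SP5 (0.0296) in HG against LG, and NKD1 (0.0557) and ZNRF3 (0.147) in LGV against LG. A filter of 1 CPM gave 0.0035 for ZNRF3 in LGV against LG. With each library left out, these uncalled values crossed 0: in HG against LG, LGR5 from -0.19 to 0.14, SP5 from -0.12 to 0.0239 and RNF43 from -0.0219 to 0.13; in LGV against LG, ZNRF3 from -0.0666 to 0.0757 and DKK1 from -0.64 to 0.0458; in HGV against LGV, RNF43 from -0.0417 to 0.16; in the interaction, AXIN2 from -0.37 to 0.0257, CTNNB1 from -0.0171 to 0.15, RNF43 from -0.0314 to 0.17 and ZNRF3 from -0.00070 to 0.19. The cause was not tested.

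Libraries shared a replicate number between groups, but their deviations did not pair them. The correlations for the same number ran from -0.255 to 0.00457 for HG and LG and from -0.221 to 0.312 for HGV and HG, and at most 2 of 6 libraries resembled their own number most in any comparison. With the replicate block, AXIN2 (FDR 0.0613) and ZNRF3 (FDR 0.0778) lost their calls in HG against LG, AXIN2 gained one in LGV against LG (FDR 0.0236), and LGR5 (FDR 0.0208) and ZNRF3 (FDR 0.0421) gained one in HGV against LGV.

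With 3 libraries a group, the 95% intervals of the log2 fold changes of these genes between groups reached about 0.2 to 0.5 to either side. Differences smaller than their interval were not called, and some larger ones were not called either. For ZNRF3 in HGV against LGV the interval was -0.55 to -0.04, with an FDR of 0.0581 by edgeR. Intervals of the interaction could be wider, as for DKK1 (0.56 to 1.75).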
